A study of Caenorhabditis elegans with 12 samples.

Results

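The insulin receptor pathway of Caenorhabditis elegans was followed through 9 of the 46987 features in the count table: daf-2, ist-1, age-1, daf-18, pdk-1, akt-1, akt-2, sgk-1 and daf-16. They were taken by gene name alone, in all 12 libraries, and all 9 passed the filter on low counts that left 16665 genes for testing. The libraries hold poly(A) RNA of whole worms of the wild-type strain Bristol N2 at L4, the last larval stage, with about 1000 worms pooled in a sample. Control worms grew on agar without AO168=O, and worms of the other groups grew on agar with AO168=O at 400 ng/g, at 2000 ng/g or at 10000 ng/g. AO168=O is the phosphate that forms when a phosphite antioxidant of plastics is oxidised. Every group, control included, received 0.01% ethanol, was kept at 25 °C on Escherichia coli and was collected after about 46 h from the embryo. Each group has 3 libraries, described by the series as independent biological replicates, and the labels give a single batch. The question followed here is whether mRNA levels of the pathway differed between exposed and control worms and how large a difference the data allow.

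In this pathway insulin-like peptides bind the receptor DAF-2, which acts through the phosphoinositide 3-kinase AGE-1 and the kinases PDK-1, AKT-1 and AKT-2. The lipid phosphatase DAF-18 opposes AGE-1. Active signalling keeps the transcription factor DAF-16 in the cytoplasm, and low signalling lets it enter the nucleus, where it promotes dauer formation, stress resistance and long life. Much of this control acts through phosphorylation and protein localisation, which mRNA counts do not measure.

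Total counts per library lay between 36897811 and 47211800, and the 9 genes together held 0.0581% to 0.106% of them. Both ends of that share were libraries of the 400 ng/g group, replicate 2 at the low end and replicate 1 at the high end. Replicate 1 at 400 ng/g had the highest level of all 12 libraries for daf-2, ist-1, akt-1 and daf-16, and control replicate 1 had the lowest level for the same 4 genes. All listed markers of neurons (8), body wall muscle (6), hypodermis (6) and germ line (8), and 5 of 6 of intestine, were detected in every library; opt-2 matched no gene name. Marker genes also differed in level between groups. Major sperm protein genes, for the protein that moves nematode sperm, summed to 197 to 565 CPM at 400 ng/g, 395 to 984 CPM at 2000 ng/g and 323 to 655 CPM at 10000 ng/g, against 819 to 1839 CPM in controls. All 29 that were tested had a negative log2 fold change at each dose. Markers of the adult cuticle summed to 365 to 865, 798 to 1474 and 658 to 911 CPM at 400, 2000 and 10000 ng/g, against 1106 to 1928 CPM in controls. Markers of oocytes and eggshell summed to 153 to 246, 186 to 383 and 149 to 214 CPM at these doses, against 286 to 409 CPM in controls, and those of the germ line to 965 to 1070, 1007 to 1299 and 916 to 1019 CPM, against 1184 to 1365 CPM in controls. Neuron markers summed to 938 to 1046 CPM at 400 ng/g, 781 to 931 CPM at 2000 ng/g and 1001 to 1027 CPM at 10000 ng/g, against 790 to 831 CPM in controls, with 8 and 7 of 8 positive at 400 and 10000 ng/g. At 400 and 10000 ng/g the sums of the cuticle, oocyte, germ line and sperm lists thus lay wholly below the controls. Those of the neuron list lay wholly above, while at 2000 ng/g the sums of these 5 lists overlapped the controls. Intestine markers summed to 8030 to 13092, 9853 to 10530 and 11636 to 13212 CPM at the 3 doses, against 11208 to 11578 CPM in controls. These lay wholly below at 2000 ng/g, where 4 of 5 genes had a positive log2 fold change, and wholly above at 10000 ng/g. Hypodermis markers summed to 2799 to 3065 CPM at 10000 ng/g, wholly below the 3732 to 4161 CPM of controls. Hypodermis sums at the other doses, and body wall muscle sums at each dose, overlapped the controls. The part of tissue or stage composition in the values below was not tested, and in whole worms fewer cells of a type and less RNA per cell cannot be told apart. CPM is here the usual unit of counts divided by library size, after scaling with TMM factors, which allow for differences in RNA composition.

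None of the 9 genes passed an adjusted p of 0.05 in edgeR's quasi-likelihood test at any dose. The largest positive differences were those of the kinase gene akt-2 at 400 ng/g and of the kinase gene pdk-1 at 10000 ng/g, each 1.36-fold. The receptor gene daf-2, its adaptor gene ist-1 and daf-16 had their highest group mean at 10000 ng/g or, for ist-1, at 400 ng/g. The phosphatase gene daf-18 was lower on average at each dose than in controls, with overlapping groups. With edgeR 0 of 9 were called at 400, 2000 and 10000 ng/g, where 0%, 0% and 0.252% of all tested genes were called. At an unadjusted p under 0.05 there were 2, 1 and 2 members, all on the high side, where 6.77%, 2.14% and 9.35% of all tested genes lay on that side and 18.5%, 5.15% and 20.6% passed in either direction. DESeq2 called 1 of 9 at 400 ng/g, akt-2, and 0 of 9 at 2000 and 10000 ng/g, with 10%, 0.03% and 7.2% of its genes called in either direction. The call of akt-2 was on the high side, where DESeq2 called 1.73% of its genes at 400 ng/g, beside 8.28% on the low side. The median log2 fold change over the 9 was 0.06, 0.08 and 0.14 at 400, 2000 and 10000 ng/g, beside 0.05, -0.02 and -0.01 over all tested genes. The log2 fold change was positive for 7, 5 and 7 of the 9, beside 57.0%, 45.6% and 48.7% of all tested genes.

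**Figure D1:**
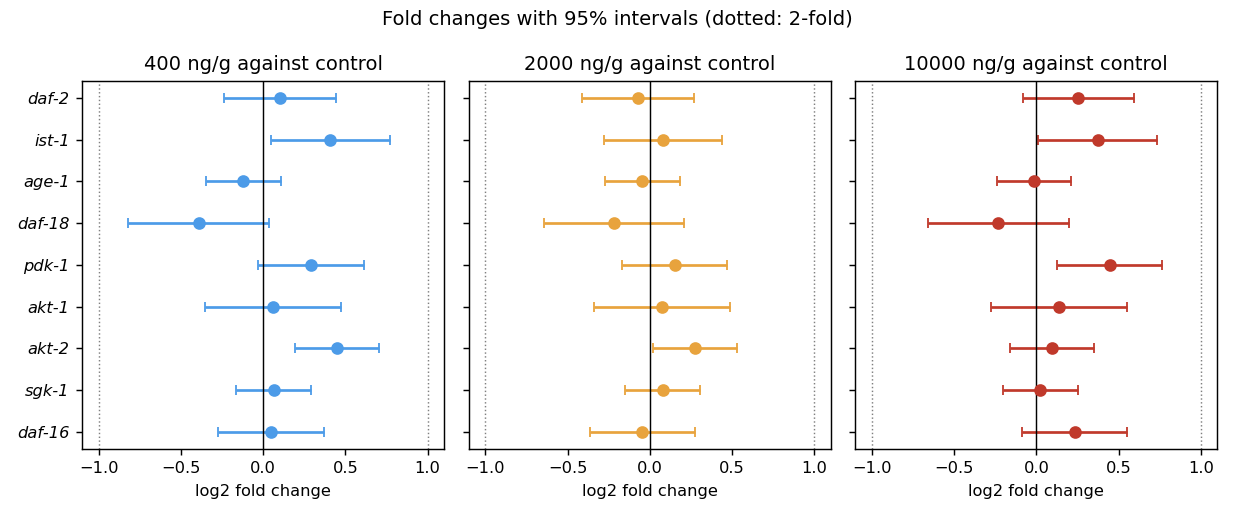
Log2 fold change of each of the 9 pathway genes (rows) against control at 400, 2000 and 10000 ng/g (panels), with 95% intervals from edgeR's quasi-likelihood fit of 12 libraries. Dotted lines mark a 2-fold change, and all 27 intervals lie between them; the highest upper bound is 1.70-fold (ist-1 at 400 ng/g) and the lowest lower bound 0.566-fold (daf-18 at 400 ng/g).

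Each of these 95% intervals bounds 1 difference in mRNA level. They were not widened for their number, so they do not hold jointly at 95%. Over the 27 combinations of gene and dose, the highest upper 95% bound was a 1.70-fold level, for ist-1 at 400 ng/g. The lowest bound was a 0.566-fold level, for daf-18 at 400 ng/g. An adjusted p that misses the threshold does not show that the levels were alike within these bounds.

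The receptor gene daf-2 (WBGene00000898) lies on the minus strand of chromosome III, from 2994514 to 3040846 in the assembly WBcel235, with 7 annotated transcripts whose counts are pooled here. Its level was 157, 197 and 208 CPM in the controls, 253, 175 and 175 CPM at 400 ng/g, 159.7, 193 and 182 CPM at 2000 ng/g, and 223, 231 and 216 CPM at 10000 ng/g. All libraries at 10000 ng/g lay above all controls, while the groups at 400 and 2000 ng/g overlapped the controls, and a single library at 400 ng/g was higher than any other. At 10000 ng/g the mean was 223 ± 7.16 CPM, against 187 ± 26.8 CPM in controls (SD, n = 3 each), a log2 fold change of 0.26 ± 0.156 (SE) with an edgeR adjusted p of 0.366. At 400 ng/g the log2 fold change was 0.10 with all libraries and -0.10 without replicate 1 of that group, so its sign depends on that library. Groups at 10000 ng/g lay wholly above the controls for 3 of the 9 genes, daf-2, ist-1 and pdk-1, as they did for 16% of all tested genes.

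The gene ist-1 (WBGene00002163, chromosome X, 7126648 to 7139666, plus strand) encodes a homologue of the insulin receptor substrates, the adaptors that carry the receptor's signal in mammals. It had 18.1, 23.9 and 21.6 CPM in the controls, 34.8, 22.03 and 27.6 CPM at 400 ng/g, 24.03, 24.2 and 19.2 CPM at 2000 ng/g, and 26.9, 28.9 and 26.8 CPM at 10000 ng/g. The libraries at 10000 ng/g were all above the controls, the lowest at 400 ng/g lay inside the control range, and the group at 2000 ng/g overlapped the controls. The log2 fold change was 0.37 ± 0.165 (SE) at 10000 ng/g (unadjusted p = 0.0435, edgeR adjusted p = 0.23). At 400 ng/g it was 0.41 ± 0.165 (unadjusted p = 0.0299, edgeR adjusted p = 0.203), and 0.22 without replicate 1 at 400 ng/g.

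The genes of the opposing lipid enzymes had log2 fold changes below 0 at each dose, none of which passed, and that of age-1 turned positive under some settings at 2000 and 10000 ng/g. The gene age-1 (WBGene00000090, chromosome II, 11519328 to 11527054, minus strand), for the catalytic subunit of the phosphoinositide 3-kinase, had 41.6, 48.6 and 47.8 CPM in the controls, 44.7, 40.5 and 41.6 CPM at 400 ng/g, 41.5, 42.7 and 49.5 CPM at 2000 ng/g, and 49.0, 45.5 and 42.1 CPM at 10000 ng/g. Each exposed group overlapped the controls, and the 12 values span a range of 1.25-fold in FPKM, the narrowest of the 9 genes. Its log2 fold change was -0.12, -0.04 and -0.01 at 400, 2000 and 10000 ng/g, with edgeR adjusted p from 0.607 to 0.962. The sign at 10000 ng/g turned to 0.02 with upper-quartile factors, to 0.04 with library size alone and to 0.01 in a fit of only those groups. A stretch of 192 exon bases of age-1, 4.89% of its exon length, is shared with B0334.10 on the opposite strand, which had 0 to 10 counts.

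The gene daf-18 (WBGene00000913, chromosome IV, 420011 to 425177, minus strand), for the lipid phosphatase that opposes AGE-1, had 44.2, 49.6 and 65.8 CPM in the controls. It had 50.5, 34.1 and 36.9 CPM at 400 ng/g, 40.9, 41.2 and 55.1 CPM at 2000 ng/g, and 50.7, 48.0 and 37.2 CPM at 10000 ng/g. Control replicate 3 was the highest of the 12 and replicate 2 at 400 ng/g the lowest, and every exposed group overlapped the controls. Its mean was 40.5 ± 8.78 CPM at 400 ng/g, against 53.2 ± 11.2 CPM in controls (SD, n = 3 each), a log2 fold change of -0.39 ± 0.197 (SE) with an edgeR adjusted p of 0.321. Without control replicate 3 that value was -0.21. At 2000 and 10000 ng/g the log2 fold change was -0.22 and -0.23 (edgeR adjusted p of 0.882 and 0.517), and -0.037 and -0.051 without control replicate 3. Leaving out 1 library at a time gave down to -0.37 at 2000 ng/g (without replicate 3 of that group) and -0.32 at 10000 ng/g (without replicate 1 of that group). The biological coefficient of variation of daf-18, the spread between libraries beyond counting error, was 18.1%, the highest of the 9 genes, beside a median of 19.4% over all tested genes.

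**Figure D2:**
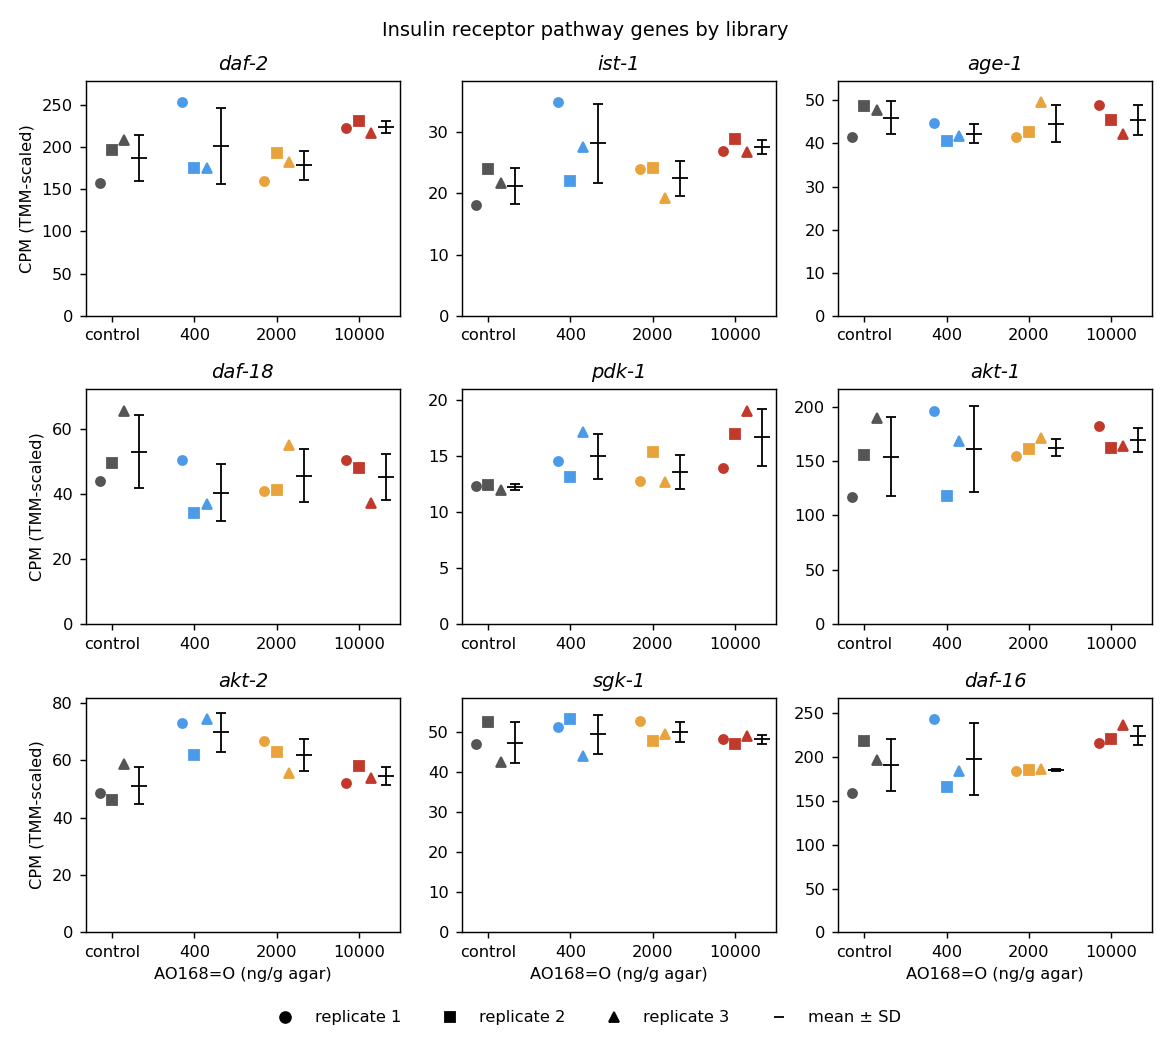
Level in CPM (y axis from 0) of each of the 9 genes in the 12 libraries, by dose of AO168=O in ng/g agar; points are libraries, with a marker shape for each replicate number, and bars are mean ± SD of 3. For akt-2 all 3 libraries at 400 ng/g (61.9 to 74.3) sit above the controls (46.1 to 58.5), and for pdk-1 the libraries of every dose sit above the controls (11.97 to 12.4).

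The kinase genes differed from one another in which dose stood highest. The gene pdk-1 (WBGene00003965, chromosome X, 1321344 to 1327986, plus strand) encodes the kinase that activates both AKT proteins. It had 12.34, 12.4 and 11.97 CPM in the controls, 14.6, 13.2 and 17.2 CPM at 400 ng/g, 12.8, 15.3 and 12.7 CPM at 2000 ng/g, and 13.97, 17.02 and 19.1 CPM at 10000 ng/g. For pdk-1 all 9 exposed libraries lay above all 3 controls. Groups at 400, 2000 and 10000 ng/g, each taken alone, lay wholly above the controls for 8.19%, 6.04% and 16% of all tested genes. The share of genes above the same 3 controls at all 3 doses at once was not computed. These single-dose shares are therefore no background for the joint pattern. The spread of the pdk-1 controls was the smallest among the 9 genes in the control group, with an SD of 0.242 CPM around 12.2 CPM. At 10000 ng/g the mean was 16.7 ± 2.56 CPM (SD, n = 3), a log2 fold change of 0.45 ± 0.147 (SE) or 1.36-fold, with a 95% interval from 1.09 to 1.70. The edgeR adjusted p was 0.147 (unadjusted p = 0.0105) and the DESeq2 adjusted p 0.0651, so the difference did not pass over all genes with either tool. The log2 fold change was 0.29 at 400 ng/g and 0.15 at 2000 ng/g, with edgeR adjusted p of 0.327 and 0.889. This gene had the lowest counts of the 9, 446 to 760 per library. It shares 15 exon bases with F21E9.2 on the opposite strand, which had 119 to 238 counts.

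The gene akt-1 (WBGene00000102, chromosome V, 10248905 to 10252845, plus strand), for an AKT kinase that phosphorylates DAF-16, had 117, 156 and 189.6 CPM in the controls, 196, 118 and 168 CPM at 400 ng/g, 155, 161 and 171 CPM at 2000 ng/g, and 182, 162 and 164 CPM at 10000 ng/g. The control range, 117 to 189.6 CPM, held every exposed library but replicate 1 at 400 ng/g. Its log2 fold change was 0.06, 0.08 and 0.14 at 400, 2000 and 10000 ng/g, with SE of 0.19 at each dose and edgeR adjusted p from 0.698 to 0.966. At 400 ng/g the value was -0.11 without replicate 1 of that group. It shares 8 exon bases with rop-1 on the opposite strand, which had 4097 to 6098 counts.

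The gene akt-2 (WBGene00000103, chromosome X, 14147700 to 14152070, plus strand), for the second AKT kinase, had 48.7, 46.1 and 58.5 CPM in the controls, 72.7, 61.9 and 74.3 CPM at 400 ng/g, 66.8, 62.9 and 55.6 CPM at 2000 ng/g, and 51.9, 57.9 and 53.7 CPM at 10000 ng/g. Libraries at 400 ng/g lay above all controls and above all libraries at 10000 ng/g, and the groups at 2000 and 10000 ng/g overlapped the controls. At 400 ng/g its mean was 69.7 ± 6.75 CPM, against 51.1 ± 6.51 CPM in controls (SD, n = 3 each), a log2 fold change of 0.45 ± 0.118 (SE) or 1.36-fold, with a 95% interval from 1.14 to 1.63. The edgeR adjusted p was 0.0639 and the unadjusted p 0.00255, while DESeq2 gave an adjusted p of 0.013 and called it. At the other doses the log2 fold change was 0.27 at 2000 ng/g (unadjusted p = 0.0385, edgeR adjusted p = 0.855) and 0.09 at 10000 ng/g (edgeR adjusted p = 0.668). Without replicate 1 at 400 ng/g, the value at 400 ng/g was 0.41 with an edgeR adjusted p of 0.0978. At 400 ng/g 2 of the 9 genes, akt-2 and pdk-1, lay wholly above the controls, as did 8.19% of all tested genes. At 2000 ng/g 1 did, pdk-1, with 6.04% of all tested genes.

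The gene sgk-1 (WBGene00004789, chromosome X, 16254842 to 16262122, minus strand), for a kinase related to AKT that also acts downstream of a TOR complex, had the lowest spread of the 4 kinase genes, with a biological coefficient of variation of 11.4%. It had 47.2, 52.7 and 42.5 CPM in the controls, 51.3, 53.3 and 44.1 CPM at 400 ng/g, 52.8, 47.9 and 49.7 CPM at 2000 ng/g, and 48.4, 47.1 and 49.2 CPM at 10000 ng/g. All 6 libraries at 2000 and 10000 ng/g lay between 47.1 and 52.8 CPM, nearly inside the control range of 42.5 to 52.7 CPM. Its log2 fold change was between 0.02 and 0.08 at the 3 doses, with SE of 0.104 and edgeR adjusted p from 0.814 to 0.921.

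The gene daf-16 (WBGene00000912, chromosome I, 10750498 to 10776703, plus strand) encodes the FOXO transcription factor at the end of the pathway and has 11 annotated transcripts from 7 start sites, whose counts are pooled here. It had 159, 218 and 197 CPM in the controls, 244, 166 and 184 CPM at 400 ng/g, 185, 185 and 186 CPM at 2000 ng/g, and 216, 221 and 237 CPM at 10000 ng/g. Libraries at 2000 ng/g differed by less than those of any other group, all groups overlapped the controls, and those at 10000 ng/g lay wholly above those at 2000 ng/g. At 10000 ng/g the mean was 225 ± 10.97 CPM, against 191 ± 30.0 CPM in controls (SD, n = 3 each), a log2 fold change of 0.23 ± 0.148 (SE) with an edgeR adjusted p of 0.384. At 400 and 2000 ng/g it was 0.05 and -0.04 (edgeR adjusted p of 0.906 and 0.975), and at 400 ng/g it was -0.13 without replicate 1 of that group.

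Between doses, daf-2, ist-1 and daf-16 lay wholly higher at 10000 than at 2000 ng/g, and akt-2 lay wholly lower at 10000 than at 400 ng/g. The first pattern was shared by 15.4% of all tested genes and the second by 6.32%. For daf-2 the log2 fold change between 10000 and 2000 ng/g was 0.33 ± 0.156 (SE), for ist-1 0.29 ± 0.165 and for daf-16 0.28 ± 0.148, with edgeR adjusted p of 0.502, 0.546 and 0.534. In a fit of those 6 libraries alone daf-2 and daf-16 passed, with edgeR adjusted p of 0.0466 and 0.0359, where 5.6% of all tested genes also passed. For akt-2 the log2 fold change between 10000 and 400 ng/g was -0.35 ± 0.117 (SE), with an unadjusted p of 0.011 and an edgeR adjusted p of 0.44. With edgeR 0 members were called for 10000 against 2000 ng/g, 10000 against 400 ng/g and 2000 against 400 ng/g, where 0.048%, 0.096% and 0% of all tested genes were. At an unadjusted p under 0.05 these comparisons held 0, 1 and 0 members, beside 10.2%, 9.5% and 9.26% of all tested genes. DESeq2 called 0 members in them, beside 0.817%, 0.992% and 0.0721% of its genes. In the test of any dose and in the trend over dose order edgeR called 0 members, beside 0.084% and 0.006% of all tested genes, and 1 member in each had an unadjusted p under 0.05, beside 17.6% and 12.3%. DESeq2 called akt-2 in the test of any dose (adjusted p = 0.0397), where it called 10.5% of its genes, and 0 members in the trend, where it called 1.55%. The member in the trend was pdk-1, with a log2 slope of 0.12 ± 0.0494 (SE) per step of dose, an unadjusted p of 0.03 and an edgeR adjusted p of 0.38.

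Levels can be compared between genes per length, as FPKM. The AKT kinase gene akt-1 stood highest with a mean of 70.7 FPKM over 12 libraries, followed by daf-16 at 54.04 FPKM. The means then ran 29.8 FPKM for sgk-1, 24.8 for akt-2, 23.7 for daf-2, 13.8 for daf-18, 11.3 for age-1, 6.24 for ist-1 and 5.91 for pdk-1. Among neighbours in this order, akt-2 exceeded daf-2 in 7 of 12 libraries and ist-1 exceeded pdk-1 in 7 of 12, so these pairs did not differ beyond their spread. The range over libraries was wholly higher for daf-16 than for sgk-1 and for age-1 than for ist-1, while the other neighbours overlapped in range. Even so, akt-1 exceeded daf-16 in 12 of 12 libraries and daf-2 exceeded daf-18 in 12 of 12. Against all tested genes, the 9 lay between percentile 43.2 for pdk-1 and percentile 90.8 for akt-1 of mean FPKM. The receptor gene daf-2 had up to 13211 counts in a library but a middling FPKM, since its exons cover 8296 bases.

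**Figure D3:**
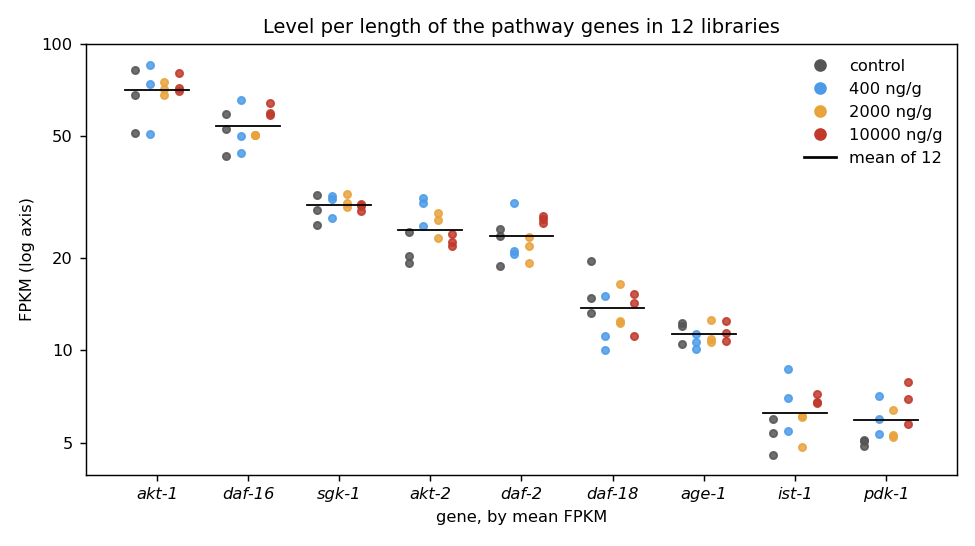
Level per length in FPKM (log axis) of the 9 genes in 12 libraries, ordered by mean; points are libraries coloured by dose and lines are means of 12. The means run from 70.7 for akt-1 to 5.91 for pdk-1, and the ranges of akt-2 with daf-2 and of ist-1 with pdk-1 lie over each other.

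Levels of the 9 genes relative to one another were also set side by side within each library. The ratio of daf-16 to daf-2 in FPKM lay between 2.13 and 2.60 in all 12 libraries, with a median of 2.23. It averaged 2.27 ± 0.172 at 10000 ng/g and 2.30 ± 0.188 in controls (SD, n = 3 each). It was 2.17 in replicate 1 at 400 ng/g, the library with the highest level of both genes, and 2.28 in control replicate 1, the library with the lowest. The ratio of akt-2 to akt-1 was more variable, from 0.272 to 0.502, and averaged 0.427 ± 0.0739 at 400 ng/g and 0.326 ± 0.0636 in controls (SD, n = 3 each). The ratio of daf-18 to age-1 lay between 0.993 and 1.62 and averaged 1.12 ± 0.182 at 400 ng/g and 1.36 ± 0.229 in controls (SD, n = 3 each). Two-sided exact permutation tests of the 3 ratios at 3 doses gave p from 0.2 to 0.9, or 0.72 to 0.9 after Benjamini-Hochberg adjustment over the 9 tests, where the smallest p the design allows is 0.1.

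**Figure D4:**
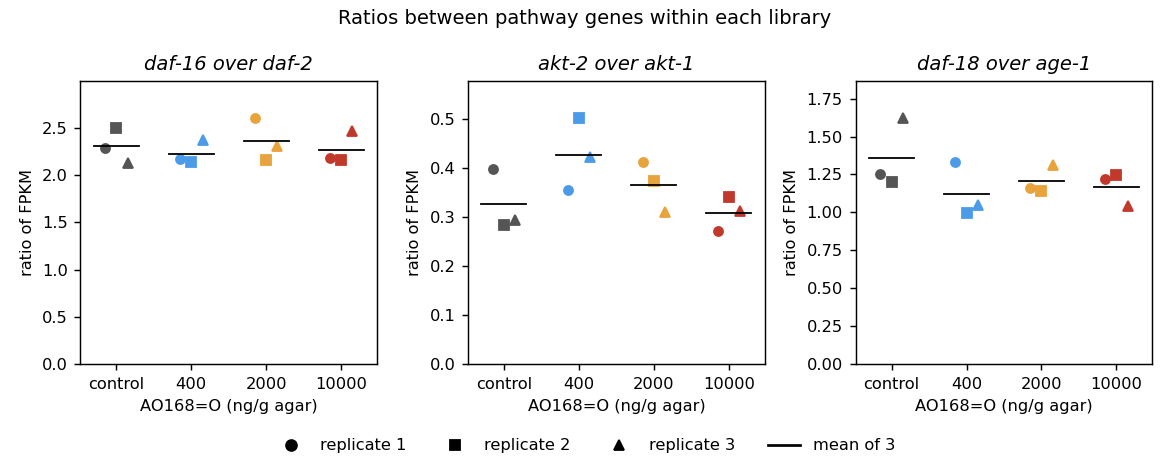
Ratios of FPKM between pathway genes in each library, by dose in ng/g agar; points are libraries and lines are means of 3. The ratio of daf-16 to daf-2 stays between 2.13 and 2.60 in every group, and the ratio of akt-2 to akt-1 reaches 0.502 at 400 ng/g.

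As a description of how the genes varied, the 2 members with the most similar profile of log2 CPM over the 12 libraries were daf-2 and daf-16, with a Pearson r of 0.89. The phosphoinositide enzymes age-1 and daf-18 followed with 0.85. The highest r of ist-1 and of akt-1 was with daf-16, at 0.77 and 0.71, and that of pdk-1 was with ist-1 at 0.62. For akt-2 the highest was 0.50 with ist-1, and for sgk-1 0.09 with daf-16. These 12 points share depth, scaling factors and the dose groups. Outside the members, the genes most like daf-2 were tag-196, C39D10.11 and math-38 (r of 0.96 each), and those most like daf-16 were sup-26, Y37D8A.4 and ZC204.12 (0.96, 0.95 and 0.95), among 10494 genes with a mean of at least 5 CPM.

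Genes that act beside the receptor pathway had medians close to those of all tested genes. Tested were 16 partners and modifiers of DAF-16, 10 genes of the TOR and AMPK arm, and 7 of an adaptor, phosphatase and AKT-branch list. The last list includes unc-31, a gene of vesicle release. Of all these genes 0 were called by edgeR at any dose, and the median log2 fold changes of the lists lay between -0.06 and 0.11. At an unadjusted p under 0.05, 1 of these 33 genes passed at 400 ng/g, 0 at 2000 ng/g and 4 at 10000 ng/g, beside 18.5%, 5.15% and 20.6% of all tested genes. DESeq2 called 0 at 400 and 2000 ng/g, and 3 at 10000 ng/g, unc-31, jnk-1 and prmt-1, beside 10%, 0.03% and 7.2% of its genes. The gene unc-31 (WBGene00006767), for the protein that neurons need to release dense core vesicles, averaged 30.6 ± 1.16 CPM at 10000 ng/g and 21.02 ± 2.16 CPM in controls (SD, n = 3 each), with an edgeR adjusted p of 0.101 and a DESeq2 adjusted p of 0.0122. Neuron markers were higher in the same libraries, as given above, and their part in this value was not tested. The kinase gene jnk-1 (WBGene00002178) averaged 11.01 ± 0.725 CPM at 10000 ng/g and 6.94 ± 0.983 CPM in controls, with an edgeR adjusted p of 0.135. The methyltransferase gene prmt-1 (WBGene00013766) had a log2 fold change of -0.29 ± 0.103 (SE) and an edgeR adjusted p of 0.16. Others named by the same rule, shc-1, eak-7, asna-1, hel-1, pqm-1, let-363, rict-1, mlst-8 and aak-1, had log2 fold changes from -0.30 to 0.40 at 10000 ng/g and edgeR adjusted p of at least 0.221.

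Other genes of dauer formation, the arrested larval stage that this pathway also controls, lay mostly above control at 400 and 10000 ng/g. Of 12 tested genes of the TGF-beta, steroid hormone, cGMP and pheromone branches, 12, 10 and 11 had a positive log2 fold change at 400, 2000 and 10000 ng/g. Over all tested genes 57.0%, 45.6% and 48.7% were positive. The list medians were 0.28, 0.08 and 0.27 beside 0.05, -0.02 and -0.01 over all tested genes. Without control replicate 3, 6 of the 12 were positive at 2000 ng/g, with a median of 0.003. Neuron markers had medians of 0.34, 0.16 and 0.37 at the 3 doses, and their part in the values of this list was not tested. Of the 12 dauer genes, edgeR called 0, 0 and 1, and DESeq2 called 2, 0 and 3, while 6, 1 and 6 had an unadjusted p under 0.05. Over all genes edgeR called 0%, 0% and 0.252%, DESeq2 10%, 0.03% and 7.2%, and the unadjusted p was under 0.05 for 18.5%, 5.15% and 20.6%. The called gene was daf-4 (WBGene00000900, chromosome III, 5625135 to 5632323), for the type II receptor of the TGF-beta branch. It had 60.4, 58.1 and 55.4 CPM in the controls, 74.0, 75.7 and 75.0 CPM at 400 ng/g, 70.6, 76.2 and 64.1 CPM at 2000 ng/g, and 82.5, 83.2 and 78.8 CPM at 10000 ng/g. Every exposed library of daf-4 lay above all 3 controls. Groups at 400, 2000 and 10000 ng/g, each taken alone, lay wholly above the controls for 8.19%, 6.04% and 16% of all tested genes. The share of genes above control at all 3 doses at once was not computed. At 10000 ng/g daf-4 had a log2 fold change of 0.49 ± 0.0873 (SE) and an edgeR adjusted p of 0.0476. The call was lost in 10 of 12 fits without 1 library, with a highest adjusted p of 0.236, and with library size alone (0.0652), without the low-count filter (0.0738) and with a replicate block (0.0882). At 400 and 2000 ng/g the log2 fold change of daf-4 was 0.37 and 0.28 (edgeR adjusted p of 0.0552 and 0.855). The nuclear receptor gene daf-12 (WBGene00000908) averaged 144 ± 11.3 CPM at 10000 ng/g and 92.4 ± 20.8 CPM in controls (SD, n = 3 each), with an edgeR adjusted p of 0.127 and a DESeq2 adjusted p of 0.0349, and daf-22, for an enzyme of pheromone synthesis, had a log2 fold change of -0.24 and an edgeR adjusted p of 0.499.

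Genes known to depend on DAF-16 had medians on both sides of 0. Among 23 tested genes that active DAF-16 raises, 18, 10 and 17 had a positive log2 fold change at 400, 2000 and 10000 ng/g. Over all tested genes 57.0%, 45.6% and 48.7% were positive. The medians of the raised list were 0.33, -0.13 and 0.15. Among 13 genes that active DAF-16 lowers, the medians were 0.03, 0.17 and -0.46. Over all tested genes they were 0.05, -0.02 and -0.01. Replicate 1 at 400 ng/g stood apart for both lists. The mean log2 level of the raised list, relative to the control mean, was 0.77 in that library and -0.07 and 0.23 in the others of its group, against -0.22 to 0.35 in the controls. For the lowered list it was -1.17 in that library and 0.34 and 0.30 in the others, against -0.34 to 0.54 in the controls. Without that library the medians at 400 ng/g were 0.11 for the raised list and 0.37 for the lowered list. The medians at the other doses also moved with single libraries. Without control replicate 3 the median of the raised list was 0.12 at 2000 ng/g and 0.39 at 10000 ng/g, and that of the lowered list -0.14 at 2000 ng/g. Without control replicate 1 the lowered list had a median of -0.09 at 10000 ng/g. With edgeR 0 genes of either list were called at any dose. At an unadjusted p under 0.05, 6, 0 and 5 of the 36 passed at 400, 2000 and 10000 ng/g, where 18.5%, 5.15% and 20.6% of all tested genes did, and DESeq2 called 2, 0 and 2, where 10%, 0.03% and 7.2% of its genes were called. The superoxide dismutase gene sod-3 (WBGene00004932), a common reporter of DAF-16 activity, had 15.5, 14.4 and 19.8 CPM in the controls, 24.5, 15.8 and 29.8 CPM at 400 ng/g, 15.6, 27.2 and 12.9 CPM at 2000 ng/g, and 41.2, 27.3 and 36.01 CPM at 10000 ng/g. Its libraries at 10000 ng/g lay above all controls, and those at 400 and 2000 ng/g overlapped them. At 10000 ng/g the log2 fold change was 1.08 ± 0.291 (SE), with an edgeR adjusted p of 0.112 and a DESeq2 adjusted p of 0.0137, and it passed in the edgeR fit of only those groups (adjusted p = 0.0463). It shares 65 exon bases, 7.38% of its exons, with C08A9.3 and 24 with lido-1 on the opposite strand. The trehalose synthase gene tps-1 (WBGene00006602) averaged 135 ± 9.96 CPM at 10000 ng/g and 93.8 ± 3.35 CPM in controls (SD, n = 3 each), with an edgeR adjusted p of 0.136, while DESeq2 called it (adjusted p = 0.0467). It also passed in edgeR fits of only those groups (adjusted p = 0.0463) and without replicate 1 at 400 ng/g (0.0364), in which 2.67% and 3.09% of all tested genes were called. The small heat shock genes hsp-16.1 and hsp-16.2, of the same list, had log2 fold changes of -0.84 and -0.93 (edgeR adjusted p of 0.227 and 0.314), and near-identical copies in this family make their counts uncertain. The yolk protein gene vit-2, of the lowered list, had a log2 fold change of -1.495 ± 0.856 (SE), with 23.1 ± 23.2 CPM at 10000 ng/g and 65.2 ± 28.1 CPM in controls, and an edgeR adjusted p of 0.335. The genes dod-20, dod-23 and gcy-18, also of the lowered list, were at 0.833 to 2.07 CPM in both groups. Their log2 fold changes at 10000 ng/g were 0.59, -1.05 and 0.81, with edgeR adjusted p of 0.223 to 0.653. Among the 13 lowered genes only gcy-18, which was higher, had an unadjusted p under 0.05 at that dose (edgeR, 0.04).

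**Figure D5:**
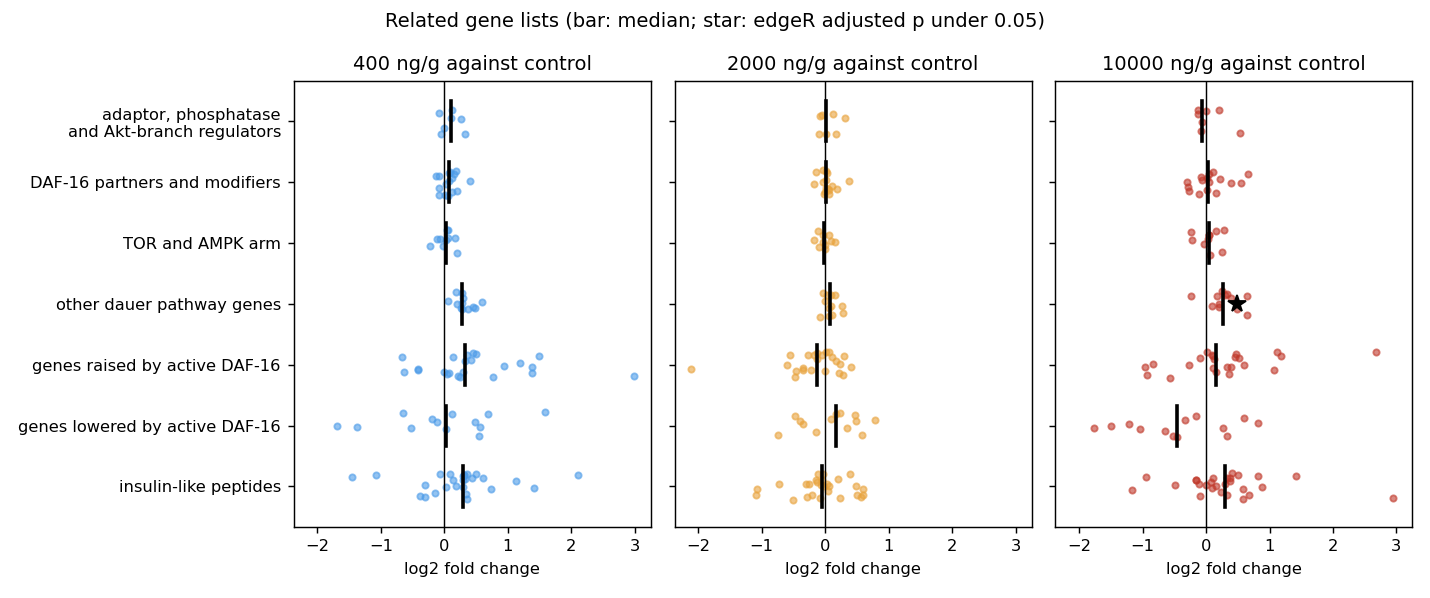
Log2 fold change against control of genes in 7 lists related to the pathway (rows) at 400, 2000 and 10000 ng/g (panels); points are genes, bars are list medians and the star is the gene with an edgeR adjusted p under 0.05. The star is daf-4 at 10000 ng/g (0.49), and the medians of other dauer pathway genes are 0.28, 0.08 and 0.27.

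Most of the tested ligand genes lay above control on average at 400 and 10000 ng/g, though edgeR called none of them and the libraries at 400 ng/g differed. Of 39 insulin-like peptide genes 27 passed the low-count filter, 20, 11 and 20 of them with a positive log2 fold change at 400, 2000 and 10000 ng/g. Over all tested genes 57.0%, 45.6% and 48.7% were positive. The medians of the peptide genes were 0.29, -0.05 and 0.30 beside 0.05, -0.02 and -0.01 over all tested genes. With edgeR 0 of the 27 were called at any dose. At an unadjusted p under 0.05 there were 4, 2 and 4 of the 27, beside 18.5%, 5.15% and 20.6% of all tested genes, and DESeq2 called 1, 0 and 0, beside 10%, 0.03% and 7.2% of its genes. By direction, the unadjusted p was under 0.05 for 3, 0 and 3 higher genes and for 1, 2 and 1 lower genes. The DESeq2 call at 400 ng/g was on the low side. It was ins-37, with an edgeR log2 fold change of -1.45 and a DESeq2 adjusted p of 0.0261. The peptide gene ins-33 (WBGene00002116) averaged 18.9 ± 3.19 CPM at 10000 ng/g and 10.7 ± 3.98 CPM in controls (SD, n = 3 each), with an edgeR adjusted p of 0.181. The gene ins-37 (WBGene00002120) averaged 2.47 ± 0.876 CPM at 10000 ng/g and 5.57 ± 2.01 CPM in controls, with an edgeR adjusted p of 0.199, and shares exon bases with 2 noncoding RNA genes. The gene ins-16 (WBGene00002099) was near the limit of detection, at 0.541 ± 0.0816 CPM at 10000 ng/g and 0.0663 ± 0.0576 CPM in controls, with an edgeR adjusted p of 0.0964. For ins-11 the log2 fold change was -0.48 (edgeR adjusted p = 0.613). Peptide genes are expressed mainly in neurons and intestine, and neuron markers lay higher at 400 and 10000 ng/g in the same libraries. Sums of the intestine markers lay wholly above the controls at 10000 ng/g, wholly below at 2000 ng/g, and overlapped them at 400 ng/g. The part of either tissue in the values of the peptide genes was not tested.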

How the data were processed

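Per the labels, poly(A) RNA of 12 samples was sequenced as paired reads of 150 bases. The authors deposited raw read counts per gene and FPKM values. The submitters' processing notes name HISAT2 2.2.1, featureCounts 2.0.6, CASAVA and, at version 1.42.0, DESeq2. How strand and multiply matching reads were counted, and on which genome build, is not given in the sources used here, so reads of genes that share exons cannot be told apart. The coordinates of 46926 of 46987 features, all members among them, were those of WBcel235 in Ensembl release 115. The deposited FPKM equal count over gene length divided by DESeq2 size factors, up to a constant, and were used only for levels between genes and for ratios.

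Counts were tested with edgeR 4.0.16 in R 4.3.3 (TMM, default low-count filter, a mean per group over 12 libraries, two-sided quasi-likelihood tests, Benjamini-Hochberg adjustment over 16665 genes, threshold 0.05). DESeq2 1.42.0 was an alternative, run on the same genes. The SE is that of the log2 fold change. Profiles were compared as log2 CPM (prior count 2). Only the edgeR fit was tried on simulated counts with known changes, and the other steps were not. The members and lists were chosen with earlier results of these data known. Named genes were all members, up to 2 higher and 2 lower genes per list by unadjusted p at 10000 ng/g, and for daf-2 and daf-16 the 3 most similar genes. Further settings were RLE and upper-quartile factors, library size alone, all genes with a count, the replicate number as a block, fits of only the groups compared, and leaving out each library. In the list of genes that DAF-16 raises, hsp-16.11, hsp-16.49 and sodh-1 matched no gene name and were not analysed here.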

Additional observations from a re-analysis of the deposited data

How the results depend on the processing

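For the 9 genes, the count past the edgeR threshold was 0 in every comparison, and it was also 0 with RLE, upper-quartile and no scaling factors and without the low-count filter. At 400 ng/g the fit without that filter called 930 genes or 3.74%, beside 0% in the main fit. The count of members was 1 at 400 ng/g and 1 for any dose with DESeq2, in both cases akt-2. Of its genes DESeq2 called 10% at 400 ng/g, 1.73% of them on the high side, and 10.5% for any dose. The count of members was 2 for 10000 against 2000 ng/g in the fit of only those groups (daf-2 and daf-16). That fit called 901 genes or 5.6%, beside 0.048% in the main fit. The cause of these higher counts was not tested. Leaving out each library gave 0 to 1 at 400 ng/g, the 1 being akt-2 without 2000 ng/g replicate 3 (adjusted p = 0.0495), a fit in which 903 genes or 5.31% were called, and 0 in the other comparisons.

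Same-numbered libraries of different groups did not deviate together: over 18 such pairs the correlation of deviations ran from -0.47 to 0.34 with a median of -0.10, 5 pairs were over 0.1, and 3 of 12 libraries correlated best with their own number. With the replicate number as a block the count of members past the threshold stayed 0 in every comparison. At 400 ng/g that fit called 579 genes or 3.47%, beside 0% in the main fit.

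The sign of some small differences depended on the setting. For age-1 at 10000 ng/g it turned positive with upper-quartile factors (0.0188), library size alone (0.0373) and only the groups compared (0.00726). Leaving out each library gave the following ranges of log2 fold change: for age-1 -0.0712 to 0.0639 at 10000 ng/g and -0.13 to 0.0040 at 2000 ng/g; for akt-1 -0.11 to 0.27 at 400 ng/g and -0.0661 to 0.25 at 2000 ng/g; for daf-16 -0.13 to 0.18 at 400 ng/g and -0.14 to 0.0607 at 2000 ng/g. They were -0.10 to 0.22 at 400 and -0.16 to 0.0112 at 2000 ng/g for daf-2, -0.0117 to 0.15 at 400 and -0.0516 to 0.11 at 10000 ng/g for sgk-1, and -0.86 to 0.0621 at 10000 ng/g for ins-11. For daf-18, negative in each of these fits, they were -0.58 to -0.21 at 400, -0.37 to -0.037 at 2000 and -0.32 to -0.051 at 10000 ng/g, the upper ends without control replicate 3. Without replicate 1 at 400 ng/g, the log2 fold changes at 400 ng/g were -0.10, -0.11 and -0.13 for daf-2, akt-1 and daf-16. The call of daf-4 at 10000 ng/g was lost with library size alone (adjusted p = 0.0652), without the low-count filter (0.0738) and with the replicate block (0.0882). At 10000 ng/g sod-3, tps-1 and unc-31 passed in the fit of only those groups (0.0463, 0.0463 and 0.0465), and tps-1 and unc-31 without 400 ng/g replicate 1 (0.0364 and 0.0496). With 3 libraries a group, the intervals of the members, each taken singly, allow levels of up to 1.70-fold and down to 0.566-fold of control.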
